A study of Xenopus tropicalis x Xenopus laevis and Xenopus tropicalis with 6 samples.

Results

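The features described here are the 1346 transcript models that lie on chromosome 4L of *Xenopus laevis*, read in embryos that carry this chromosome only through the sperm. They were taken from a count table of 45244 features by the chromosome in the feature name and the *X. laevis* model prefix, and were ordered along the chromosome by the number of the model. They are 1346 of the 27182 *X. laevis* features of the table, which also holds 18062 *X. tropicalis* features. Of the 1346, 706 carry a gene symbol and 640 a model or locus number. A total of 502 have a copy of the same name on a short (S) chromosome, of which 501 lie on 4S, and 829 have an *X. tropicalis* feature of the same name, of which 789 lie on *X. tropicalis* chromosome 4. The order of the models was close to that of their *X. tropicalis* copies there (Spearman's rho 0.938 across 789 genes, given as a description of the gene order).

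The hybrids came from *X. tropicalis* eggs fertilized with *X. laevis* sperm (libraries 40, 41 and 42), and the comparison embryos were *X. tropicalis* (libraries 37, 38 and 39). All were untreated whole embryos at 7 hours after fertilization, with polyA RNA and 3 libraries in each group, biological replicates by the series text. *X. tropicalis* embryos hold no *X. laevis* chromosome, so their counts on an *X. laevis* feature are taken as its background. Library totals ranged from 71435751 to 100025277 counts, and the 4L features took 246176 to 316024 counts per hybrid library and 194280 to 234765 per *X. tropicalis* library. No library held *X. laevis* RNA alone, so the level that these genes reach at this stage in pure *X. laevis* embryos was not analysed here.

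*X. laevis* is allotetraploid and carries a long (L) and a short (S) set of chromosomes that descend from different diploid ancestors. Many genes are therefore present as an L and an S copy, while *X. tropicalis* is diploid and has a single copy. In the first hours after fertilization a frog embryo lives on RNA stored in the egg, and its own genome becomes active at the midblastula transition, so RNA of a sperm chromosome reports transcription in the embryo. Earlier work on this cross reported that the embryos die as late blastulae and lose parts of the paternal chromosomes 3L and 4L, and the series asks what happens to the paternal genome.

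Paternal 4L features gave little RNA. Their levels summed to 3519, 3716 and 3801 CPM (counts per 1000000 counts of the library) in the hybrid libraries, against 1987, 2389 and 2197 CPM of background in the *X. tropicalis* libraries. Every hybrid library lay above every *X. tropicalis* library (2-sided exact permutation test p = 0.1, which 6 libraries in groups of 3 cannot go below). The features of the sister chromosome 4S summed to 5745, 6663 and 7183 CPM in hybrids, against 1719, 2047 and 1892 CPM in *X. tropicalis*. In whole embryos, fewer cells that hold a gene and less RNA per cell cannot be told apart.

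Expressed as the net level, which subtracts the mean background from the hybrid CPM and divides by the number of features, 4L gave 1.11 net CPM per feature ± 0.107 (SD, n = 3). The hybrid libraries gave 0.987, 1.13 and 1.20. Chromosome 4S gave 3.94 ± 0.617, with 3.27, 4.05 and 4.49 in the same libraries. The log2 ratio of 4L over 4S was -1.82 ± 0.09 (SD, n = 3), a 3.54-fold lower net level on 4L, and it was below 0 in 3 of 3 libraries (exact sign-flip permutation test p = 0.25, the smallest value that 3 libraries allow). Chromosome 3L gave 1.52 ± 0.286, while the 9 S chromosomes spanned 3.87 to 6.60 and the other 7 L chromosomes 3.88 to 5.56. The log2 ratio of 4L over the median of the other 8 L chromosomes was -2.07 ± 0.05 (SD, n = 3).

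**Figure D1:**
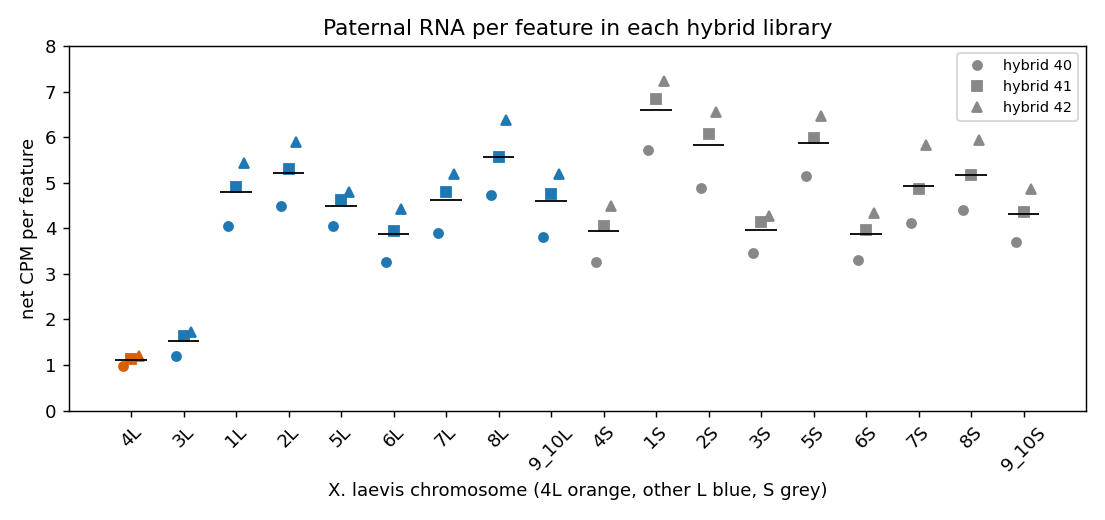
Net CPM per feature (hybrid level less the mean background, divided by the number of features) for each *X. laevis* chromosome. Each symbol is a hybrid library and each bar the mean of the 3 libraries. Chromosome 4L (0.987 to 1.20) and 3L (1.19 to 1.72) lie below all other chromosomes in every library, and the other 7 L chromosomes have means of 3.88 to 5.56.

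Part of 4L nevertheless remained expressed. The test took features with a sum of 10 or more counts in hybrids, which were 1091 of the 1346, and 246 of them, or 22.5%, were called above the level in *X. tropicalis* embryos (edgeR's quasi-likelihood test with Benjamini-Hochberg adjusted p under 0.05 over all *X. laevis* features). Over all 23919 *X. laevis* features tested the share was 40.5%. As a share of all features of the chromosome, tested or not, 4L had 18.3% above background (14.7 to 17.4% with a library left out). The share was 17.6% on 3L, 40.6% on 4S, 35.2 to 38.5% on the other 7 L chromosomes and 36.4 to 41.8% on the 9 S chromosomes. The remaining 255 features were under the count minimum, 100 of them with no count in hybrids. Features without a count made up 7.43% of 4L, 8.41% of 3L, 3.44 to 4.61% of the other 7 L chromosomes and 2.09 to 4.52% of the S chromosomes.

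By a stricter measure, 220 of the 246 also exceeded the mean background more than 10-fold, which is 20.2% of the 4L features tested, against 36.2% of all *X. laevis* features tested. At an unadjusted p under 0.05, 326 features (29.9%) were higher and 6 (0.550%) lower in hybrids, against 48.3% and 0.301% of all *X. laevis* features tested. DESeq2 called 318 higher (29.1%), against 46.8% of all. Just inside the threshold stood LOC101730431.L with 2.34 CPM in hybrids over a background of 0.304 CPM (adjusted p = 0.0495), and just outside it gtf3c6.L with 0.486 CPM in hybrids and no count in *X. tropicalis* (adjusted p = 0.0501). A feature that misses the threshold is therefore not shown to be silent.

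The expressed 4L features were also low ones. Among the 246, 25 had a hybrid mean over 10 CPM, 150 lay between 1 and 10 CPM and 71 under 1 CPM, with a median of 1.75 CPM. The median of the features above background was 1.94 CPM on 3L, 3.04 CPM on 4S and 3.17 to 3.96 CPM on the other 7 L chromosomes. Over all features, called or not, the median hybrid level was 0.414 CPM on 4L and 1.01 CPM on 4S, while the median *X. tropicalis* background was 0.0157 and 0.0136 CPM. Chromosome 4S had 109 called features over 10 CPM.

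Among features with a gene symbol called above background, the highest level was that of sall1.L, which encodes a spalt-like zinc finger transcription factor of kidney and limb development. It had 86.3, 102 and 119 CPM in hybrids, against 1.79, 0.845 and 0.225 CPM in *X. tropicalis* (adjusted p = 9.26e-12 by edgeR, for a log2 fold change of 6.75 with SE 0.505). The groups lie far apart, and this gene alone made up 6.82% of the net CPM of 4L. Its S copy stood at 70.9, 62.5 and 83.2 CPM in the same hybrid libraries, and the 2 copies did not differ past the threshold (log2 L over S 0.50, adjusted p = 0.0715, edgeR). The *X. tropicalis* copy had 255 CPM in hybrids, against 415 CPM in pure *X. tropicalis*.

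Other genes followed at lower levels. The cyclooxygenase gene ptgs2.L, whose product starts prostaglandin synthesis, had 27.3, 22.0 and 22.7 CPM in hybrids, against 0.0511, 0.0104 and 0.0374 CPM in *X. tropicalis* (adjusted p = 4.83e-13, edgeR). The growth arrest and DNA damage gene gadd45a.L had 15.2, 16.7 and 21.2 CPM in hybrids and 2 counts in all in *X. tropicalis* (adjusted p = 6.46e-12, edgeR). The death domain gene pidd-like.L, named after a p53-induced adaptor, had 16.05, 15.2 and 17.3 CPM in hybrids, against 0.0614, 0.0209 and 0.0374 CPM in *X. tropicalis*. In none of these did the groups overlap, and the hybrid libraries differed from each other by less than 1.5-fold.

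The forkhead gene foxa4.L, a gene of the Spemann organizer and notochord in *Xenopus*, varied more. It had 21.9, 26.4 and 5.94 CPM in hybrids and 3 counts in all in *X. tropicalis* (adjusted p = 2.89e-11, edgeR), so library 42 was the low one. The retinoblastoma family gene rbl2-like.L had 15.9, 16.5 and 19.0 CPM in hybrids and 3 counts in *X. tropicalis*. The Nudix hydrolase gene nudt22.L had 15.2, 15.4 and 7.30 CPM in hybrids, again with library 42 low, against 0 to 0.0749 CPM in *X. tropicalis*. The adaptor gene bcl10.L, which links immune receptors to NF-kappaB, had 9.18, 10.7 and 17.3 CPM in hybrids, against 0.399, 1.76 and 0.374 CPM in *X. tropicalis* (adjusted p = 1.82e-05 by edgeR, for a log2 fold change of 3.87 with SE 0.649).

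Other high features stood on a visible background. The ubiquitin ligase receptor gene zyg11b.L had 43.6, 62.2 and 50.9 CPM in hybrids, against 19.2, 33.3 and 37.3 CPM in *X. tropicalis* (adjusted p = 0.0294, edgeR), and the zinc finger gene znf423.L had 36.1, 45.8 and 51.1 CPM, against 13.0, 34.8 and 24.3 CPM (adjusted p = 0.0307). The groups do not overlap in either, but both calls were lost with library totals in place of TMM factors and when single libraries were left out (adjusted p up to 0.144 for zyg11b.L and 0.152 for znf423.L). DESeq2 called zyg11b.L (adjusted p = 0.0376) but not znf423.L (adjusted p = 0.0507). The PI3 kinase regulatory subunit gene pik3r3.L was firmer, with 12.4, 15.8 and 23.1 CPM in hybrids, against 5.53, 5.15 and 4.84 CPM in *X. tropicalis* (adjusted p = 0.00129, edgeR). The FAM83 family gene fam83f.L had 11.2, 13.7 and 13.4 CPM in hybrids, against 1.08, 1.13 and 0.0187 CPM.

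**Figure D2:**
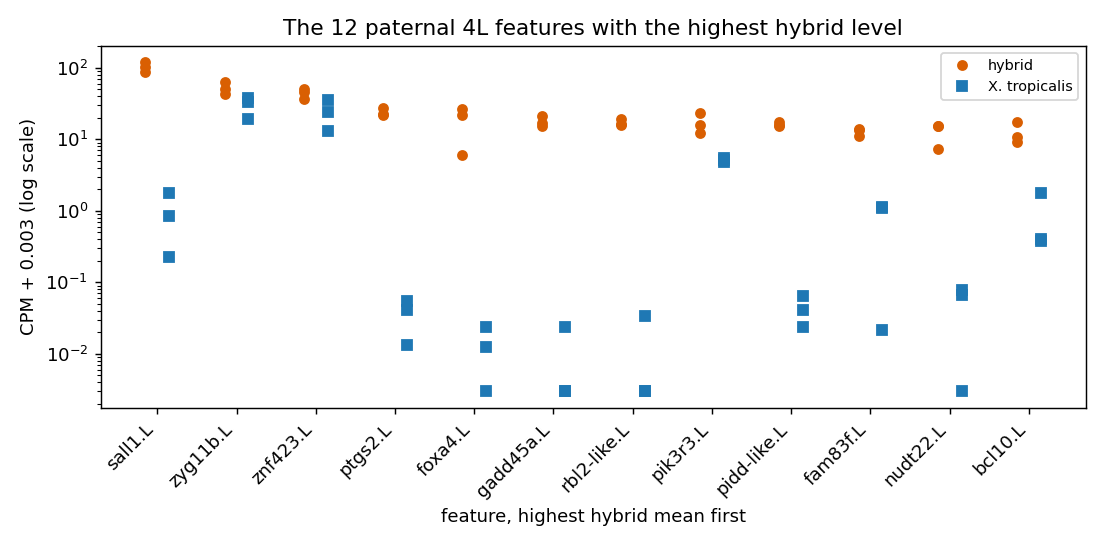
Level of the 12 named 4L features with the highest hybrid mean among those above background, in CPM plus 0.003 on a log scale. Circles are the 3 hybrid libraries and squares the 3 *X. tropicalis* libraries. For sall1.L the hybrid libraries lie at 86.3 to 119 CPM, against 0.225 to 1.79 CPM, while zyg11b.L and znf423.L have a background of more than 10 CPM.

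Many features had a background as high as the hybrid level. Background exceeded 1 CPM in 225 of the 1346 features and was at least as high as the hybrid mean in 251. The 251 include the 100 features without a count in hybrids, so they are not all features of high background. The protein kinase A catalytic subunit gene prkacb.L had 89.2, 103 and 153 CPM in hybrids, against 89.5, 103 and 114 CPM in *X. tropicalis* (adjusted p = 0.542, edgeR), and the hyaluronidase gene hyal2.L had 51.1, 66.1 and 84.0 CPM in hybrids, against 38.97, 55.5 and 67.7 CPM in *X. tropicalis*. How much of these counts is paternal RNA cannot be read from the totals. Lower in hybrids than in *X. tropicalis* were 5 of the 1091 features of 4L tested, against 47 of all 23919 *X. laevis* features tested (0.196%). The kinase gene pim1.L had 14.6, 14.2 and 17.5 CPM in hybrids, against 53.3, 62.4 and 56.5 CPM in *X. tropicalis* (adjusted p = 3.45e-06 by edgeR, for a log2 fold change of -1.90 with SE 0.284), and the amino acid transporter gene slc7a5.L had 34.0, 27.7 and 26.9 CPM, against 62.7, 53.6 and 49.8 CPM (adjusted p = 0.00789). The *X. tropicalis* copies of these 2 genes were also lower in hybrids. The pim1 copy had 8.15 CPM in hybrids, against 32.3 CPM in *X. tropicalis*, and the slc7a5 copy 4.09 CPM, against 19.3 CPM. Whether the changes of the copies are linked was not tested. The net levels of pim1.L and slc7a5.L, -42.0 and -25.8 CPM, are part of the net level of 4L. The other 3 lower features were parva.L, ptprg.L and a feature known by its model number, named after their values were seen.

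The S copies of the same genes give a comparison inside the same embryos, since both copies entered with the same sperm. Copies differ in sequence and their lengths are not in the table, so a ratio for a single pair is one of counts, and the ratios are read against those of the other L chromosomes. Among 498 pairs on 4L and 4S with at least 10 counts, the L copy was lower in 86 and higher in 28 (edgeR quasi-likelihood test on paired columns, Benjamini-Hochberg adjusted p under 0.05 over all pairs). Over all 4650 L and S pairs tested the shares were 11.6% lower and 10.7% higher, against 17.3% and 5.62% on 4L. The other 7 L chromosomes had 6.33 to 12.6% lower and 9.92 to 14.7% higher, and 3L had 22.1% and 6.75%. The counts move with the tool and with single libraries: DESeq2 called 191 lower and 65 higher on 4L (38.4% and 13.1%, against 24.7% and 22.6% over all pairs), and without hybrid library 41 edgeR called 38 and 12 (7.76% and 2.45%, against 4.97% and 4.84%). Without hybrid library 40 edgeR called 56 and 14 (11.5% and 2.89%, against 7.07% and 6.85% over all pairs). Without library 42 it called 59 and 22 (11.9% and 4.44%, against 7.28% and 7.49%).

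The median log2 ratio of L over S counts was -1.39 on 4L, and -1.38, -1.47 and -1.72 in the 3 hybrid libraries. It was -1.39 on 3L and -0.20 to 0.48 on the other 7 L chromosomes. Of the 247 S copies that lay above background, the 4L partner was also above background in 64, or 25.9%. On the other 7 L chromosomes this share was 64.0 to 70.1%, and on 3L 25.4%. In 183 pairs of 4L the S copy alone was above background, in 34 the L copy alone, and in 217 neither.

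Some L copies were absent or nearly so while the S copy was read. The G protein gamma subunit gene gng3.L had no count in hybrids, while gng3.S had 18.2, 30.8 and 29.5 CPM, so that the S copy was at least 1960-fold higher when 3 counts in all are set in place of 0 (adjusted p = 6.03e-04, edgeR). The gene rrp9.L, which encodes a protein of the U3 small nucleolar particle, also had no count, while rrp9.S had 3.25, 5.60 and 4.60 CPM (at least 338-fold, adjusted p = 0.0174, edgeR; the call was lost without library 41, adjusted p = 0.113). The chaperone gene dnaja2.L had a single count, while dnaja2.S had 10.8, 10.1 and 13.9 CPM, over a background of 0.0131 CPM (adjusted p = 0.00107). The sialyltransferase gene st3gal3-like.L had no count and zranb2.L, a splicing factor gene, had 1, while their S copies had 33.0 and 52.6 CPM, but those S copies did not pass the background test, with 22.9 and 40.7 CPM in *X. tropicalis*.

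In other pairs both copies were read and the L copy was the weaker. For ptgs2 the L copy had 27.3, 22.0 and 22.7 CPM and the S copy 109, 137 and 114 CPM in the same libraries (S 5.06-fold higher by summed counts, adjusted p = 4.55e-04, edgeR). For foxa4 the L copy had 21.9, 26.4 and 5.94 CPM and the S copy 198, 160 and 142 CPM (8.81-fold, adjusted p = 0.00146). The translocon gene sec61a1.L, whose product forms the protein channel of the endoplasmic reticulum, had 2.43, 0.870 and 0.695 CPM, and sec61a1.S had 44.8, 50.8 and 60.7 CPM (38.7-fold, adjusted p = 7.44e-04). The cyclin E gene ccne1.L had 1.41, 2.23 and 2.90 CPM, and ccne1.S 22.9, 41.4 and 43.7 CPM (16.7-fold, adjusted p = 3.08e-04). In these 4 genes every library had the L copy lower.

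In a smaller number the 4L copy was the stronger. For bcl10 the L copy had 9.18, 10.7 and 17.3 CPM and the S copy 0, 0 and 0.695 CPM (L 60.2-fold higher by summed counts, adjusted p = 0.0193, edgeR; lost without library 40 or 41, adjusted p up to 0.109). For fam83f the L copy had 11.2, 13.7 and 13.4 CPM and the S copy 0, 0.235 and 0 CPM (143-fold, adjusted p = 0.00959). The gadd45a copies, with 15.2, 16.7 and 21.2 CPM on L and 9.06, 17.7 and 17.8 CPM on S, did not differ past the threshold (adjusted p = 0.548). The stronger L copies znf423.L, pdc.L, grip2.L and hyal2.L have a background over 1 CPM. After features over 1 CPM of background were left out, the L copy was higher in 4 of 354 pairs (1.13%) and lower in 66 (18.6%). Over all 3396 such pairs of all chromosomes the shares were 7.54% and 10.4%.

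**Figure D3:**
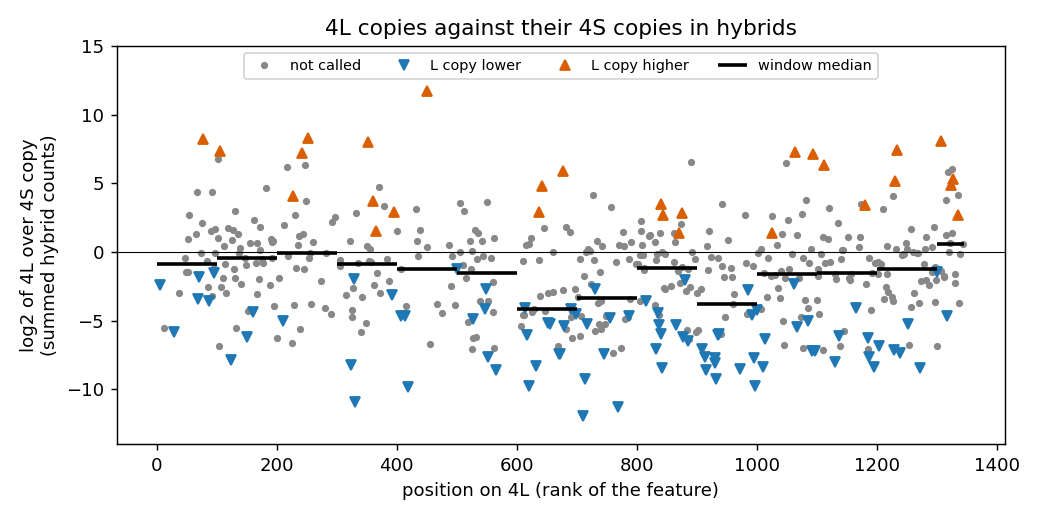
Log2 ratio of the summed hybrid counts of each 4L feature over its 4S copy, by the rank of the feature along 4L. A copy with fewer than 3 counts was set to 3. Triangles mark the pairs past the threshold (28 with the L copy higher, 86 lower), and horizontal bars are medians over windows of 100 features. The window medians lie between -0.06 and -1.56 over the first 600 features and reach -4.15 in the window after them.

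Features called above background and those not called were not spread evenly along 4L, which is given as a description without a test. In windows of 100 features the share above background was 17, 24, 18, 28 and 38% over the first 500 features. It was then 14, 10, 9, 15, 14, 17, 17 and 15% over the next 800 and 21.7% in the last 46. The window of features 401 to 500, which holds sall1.L, znf423.L, rbl2-like.L and the Iroquois homeobox gene irx3.L, was the only window whose share reached the 35.2 to 38.5% of the other 7 L chromosomes. The lowest shares were those of features 601 to 800. The S copies of the same genes were above background in 38.5, 37.2, 40, 69.7 and 68.4% of cases in the first 5 windows. In the next 3 windows the share of S copies was 50, 56.4 and 38.1%. There the 4L share was 14, 10 and 9% over all features, and 10, 12.8 and 11.9% over the 4L features with a 4S copy. The S share was 48.1, 71.4, 47.6, 52.5, 43.5 and 36.4% in the last 6.

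**Figure D4:**
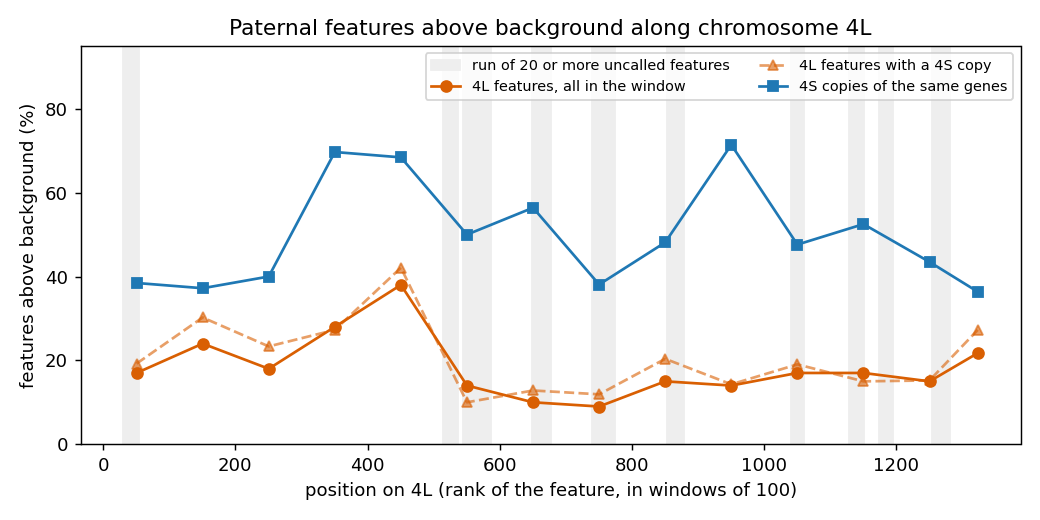
Share of features above background along 4L, in windows of 100 features (46 in the last). Circles are all 4L features, triangles the 4L features that have a copy on 4S, squares those 4S copies, and grey bands runs of 20 or more consecutive 4L features of which none was above background. The 4L share peaks at 38% in the fifth window and is 9 to 17% in the 8 windows after it, while the share of the 4S copies varies between 36.4 and 71.4%.

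The longest run without a called feature starts at feature 545, and the chromosome was described on either side of that point, which was chosen after the values were seen. From there on, 110 of 802 features (13.7%) were above background, and before it 136 of 544 (25.0%). Of the S copies, 163 of 331 (49.2%) were above background from there on and 84 of 170 (49.4%) before it. The L copy was lower than the S copy in 67 of 329 pairs from there on and in 19 of 169 before it, with median log2 ratios of -1.77 and -0.64. Features with a background under 1 CPM summed to 474, 504 and 518 CPM in hybrids over the 671 features from there on, against 69.8, 96.0 and 69.0 CPM in *X. tropicalis*. Over the 450 such features before it they summed to 592, 639 and 618 CPM in hybrids (505, 536 and 499 CPM without sall1.L), against 44.9, 44.5 and 33.3 CPM in *X. tropicalis*.

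Chromosome 4L had 10 runs of at least 20 consecutive features with none above background, and they held 270 features, or 20.1% of the chromosome. Chromosome 3L had 13 such runs (22.0%), the other 7 L chromosomes 0 to 2 (up to 2.72% of their features), the S chromosomes 0 or 1, and 4S none, with a longest run of 13. A chromosome with fewer called features has longer runs by construction, so the runs show where the uncalled features lie and are not a separate measure of the deficit. In the other direction, the longest stretch of consecutive called features on 4L was 5 (features 540 to 544, just before the longest run), against 6 to 12 on all other chromosomes. That stretch holds nip7.L, vps4a-like.L, sntb2.L, cirh1a.L and a feature known by its model number.

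**Figure D5:**
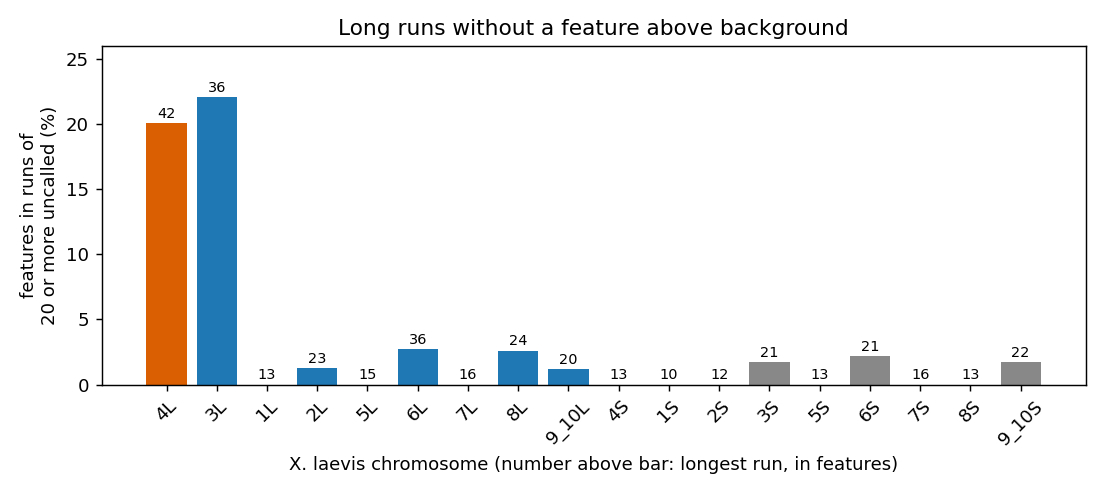
Percent of each chromosome's features that lie in runs of 20 or more consecutive features with none above background. The number over each bar is the length of the longest run in features. Chromosomes 4L (20.1%, longest run 42) and 3L (22.0%, longest run 36) stand above all others, which reach at most 2.72%.

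The longest run covers 42 features from has3.L, a hyaluronan synthase gene, to feature 586, between cirh1a.L and ces2.L. Summed over the run, hybrids had 156, 183 and 155 CPM and *X. tropicalis* 140, 160 and 154 CPM, so the groups overlap, and 87.7% of the hybrid sum lay on LOC100497996.L, slc7a5.L and fam92b-like.L, which have a background. The 35 features with a background under 1 CPM summed to 9.58, 12.9 and 9.96 CPM in hybrids, against 2.76, 4.78 and 3.36 CPM in *X. tropicalis*. Features of low background were picked by these same *X. tropicalis* libraries, here and in the runs below, so their sums are a description without a test. The run was low and is not shown to be empty. DESeq2 called 3 of its features, among them the forkhead gene foxf1.L and the autophagy gene map1lc3b.L, named after their values were seen.

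Of the 11 S copies of genes in this run, 5 were above background. Over its 11 pairs the L copy was lower in 4 and higher in 0 (edgeR), against 17.3% and 5.62% of all 4L pairs. The run was chosen as uncalled L copies, which favours lower L copies in its pairs. These counts therefore describe the run and are no separate support. The genes cdh3.L and emc8.L were taken by rule as uncalled L copies with a high S copy. Their ratios therefore describe these genes and not the run. The cadherin gene cdh3.L, whose product is the main cadherin of the early *Xenopus* embryo, had 0.148, 0.576 and 2.15 CPM in hybrids, against 0.348, 0.0522 and 0.0749 CPM in *X. tropicalis* (adjusted p = 0.221, edgeR), so the groups overlap. Its S copy had 15.8, 14.3 and 19.0 CPM in the same hybrids (adjusted p of L over S 0.00883, or 0.0799 without library 41). The gene emc8.L, of a membrane protein insertion complex, had a single count in hybrids, while emc8.S had 4.47, 3.46 and 8.08 CPM. Among *X. tropicalis* copies of the run's genes the median was 13.6 CPM in hybrids, against 11.98 CPM in pure *X. tropicalis*.

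The second run covers 35 features from atg4c.L, an autophagy protease gene, to gpbp1l1.L. Of its features, 8 had no count in hybrids, and edgeR called 0, with 0 at an unadjusted p under 0.05 and 0 by DESeq2. Its sum was 50.4, 63.1 and 72.1 CPM in hybrids, against 44.9, 51.9 and 52.5 CPM in *X. tropicalis*, with 72.3% of the hybrid sum on 3 features, of which the fatty acid elongase gene elovl1.L had 15.8, 19.1 and 24.4 CPM in hybrids, against 20.2, 22.6 and 19.96 CPM in *X. tropicalis*. The 29 features of low background summed to 7.09, 7.04 and 7.97 CPM in hybrids, against 1.83, 4.13 and 6.16 CPM in *X. tropicalis*. Of 13 S copies 4 were above background, and the L copy was lower in 3 of the 13 pairs and higher in 0. The choice of the run favours lower L copies here too. The genes hook1.L and ppap2b.L were likewise taken as uncalled L copies with a high S copy. The microtubule linker gene hook1.L had 4 counts over the hybrid libraries, while hook1.S had 1.37, 3.41 and 4.83 CPM. The lipid phosphatase gene ppap2b.L was read in library 42 alone, with 0.896 CPM, while ppap2b.S had 5.50, 6.68 and 10.3 CPM. The calls of L under S for hook1 and ppap2b were lost without hybrid library 40 or 41 (adjusted p up to 0.206, edgeR).

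The third run covers 29 features, ends with the matricellular gene cyr61.L and is followed at once by bcl10.L at 12.4 CPM ± 4.35 (SD, n = 3). Its 26 features of low background summed to 5.40, 2.74 and 4.91 CPM in hybrids, against 0.164, 1.28 and 1.86 CPM in *X. tropicalis*. Of its 9 S copies 7 were above background, the highest share of the 3 runs. The L copy was lower in 4 of the 9 pairs and higher in 0, which the choice of the run again favours. The genes cnot1.L and usp1.L were likewise taken as uncalled L copies with a high S copy. The deadenylase scaffold gene cnot1.L had 0.768, 0.141 and 1.03 CPM in hybrids, against 0.0102, 0.0313 and 0 CPM in *X. tropicalis* (adjusted p = 0.0892, edgeR; DESeq2 called it), while cnot1.S had 18.8, 19.9 and 27.4 CPM (35.8-fold higher than L, adjusted p = 0.00235, edgeR). The deubiquitinase gene usp1.L, which acts in DNA repair, had 0, 0.235 and 0.0154 CPM, and usp1.S had 12.9, 18.2 and 16.5 CPM (170-fold, adjusted p = 0.00449). DESeq2 called 2 features of the run.

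Apart from bcl10.L, the genes that border the 3 runs had low levels. The nucleolar gene cirh1a.L had 0, 0.588 and 2.35 CPM and the carboxylesterase gene ces2.L 0.283, 1.75 and 0.0309 CPM in hybrids, with no count in *X. tropicalis*, and each call was lost when the highest library was left out (adjusted p = 0.164 and 0.353). The neural crest forkhead gene foxd3.L, before the second run, had 0, 0.470 and 1.14 CPM and no count in *X. tropicalis* (adjusted p = 0.0398, lost when any library other than hybrid 40 was left out, adjusted p up to 0.215). The scaffold gene vac14.L, before the third run, had 2.02, 3.01 and 2.04 CPM (adjusted p = 1.47e-04) and ccdc17.L, after the second, 3.31, 1.47 and 3.35 CPM (adjusted p = 6.58e-05), and these kept their calls with each library left out. The place of the longest run moves with such calls: it starts at feature 740 with DESeq2 (35 features), at feature 730 without hybrid library 42 or *X. tropicalis* library 37 or 39 (45 features), and without hybrid library 41 it starts at 545 and has 69 features.

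The *X. tropicalis* copies of these genes were read in the same hybrid libraries. Their counts may include RNA stored in the egg, and L and *X. tropicalis* features can differ in length. Over 813 pairs, the 4L copy was lower in 489 (60.1%; 56.4% over all 14242 pairs of all chromosomes) and higher in 12 (1.48%; 2.28% over all pairs). Without hybrid library 40, 41 or 42 edgeR called 321, 334 and 381 lower (39.7, 41.8 and 47.2%, against 36.7, 37.6 and 46.1% over all pairs). It called 1, 1 and 7 higher (0.124, 0.125 and 0.867%, against 0.659, 0.480 and 0.932% over all pairs). DESeq2 called 600 lower (73.8%, against 69.5% over all pairs) and 52 higher (6.40%, against 7.82% over all pairs). In the median pair the 4L copy had 2.92% of the counts of its *X. tropicalis* copy. The median was 2.60% on 3L, 8.98% on 4S, 7.54 to 13.1% on the other 7 L chromosomes and 5.47 to 9.82% on the S chromosomes. The *X. tropicalis* copies themselves had a median log2 ratio of hybrid over *X. tropicalis* of -0.01 over 699 genes above 1 CPM, against 0.01 over all 12390 such *X. tropicalis* features. The median covers changes in both directions, given here without a test: 43 of the 699 (6.15%) were more than 2-fold lower in hybrids and 22 (3.15%) more than 2-fold higher, against 9.03% and 4.18% of all such features. Among the lower ones were the copies of ptgs2.L, with 54.0 CPM in hybrids against 164 CPM in *X. tropicalis*, and of foxa4.L, with 116 CPM against 279 CPM.

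For some genes with much *X. tropicalis* RNA the contribution of the paternal 4L copy was a small part. The cyclin B gene ccnb1.2.L had 1.43, 0.235 and 3.95 CPM in hybrids, beside 2600.15 CPM on the *X. tropicalis* copy, and cdh3.L stood beside 1038 CPM and ccne1.L beside 527 CPM. For others it was larger. Of the summed hybrid counts of the 4L and *X. tropicalis* copies, 4L held 28.6% for sall1, 30.9% for ptgs2, 22.6% for gadd45a and 14.1% for foxa4. These shares leave out the S copy, which is also paternal. In hybrids the S copy exceeded the *X. tropicalis* copy for foxa4 (167 against 116 CPM) and ptgs2 (120 against 54.0 CPM). It was below that copy for sall1 (72.2 against 255 CPM) and gadd45a (14.8 against 59.7 CPM). In a few genes the paternal 4L copy had more counts than the *X. tropicalis* copy, though of the 5 given next only fam83f passed the test of that difference. The secreted C1q and TNF related gene c1qtnf4.L had 8.38, 7.35 and 13.8 CPM in hybrids, beside 0.355 CPM on the *X. tropicalis* copy (adjusted p of paternal over *X. tropicalis* 0.0575, edgeR), and trove2.L, which encodes the Ro RNA-binding protein, had 7.99, 7.43 and 14.1 CPM, beside 0.415 CPM (adjusted p = 0.0862). The dynein heavy chain gene dnah1.L had 2.56, 1.75 and 1.16 CPM and no count in *X. tropicalis* (at least 183-fold against the floor of 3 counts, adjusted p = 1.54e-04, edgeR), and its *X. tropicalis* copy had no count in hybrids (adjusted p between the copies 0.0863). The bcl10 and fam83f copies of *X. tropicalis* had 0.743 and 1.31 CPM in hybrids, under their paternal 4L copies. The adjusted p between the copies was 0.0780 for bcl10 and 0.0160 for fam83f (edgeR), and that of fam83f was 0.0553, 0.0798 and 0.0528 without hybrid library 40, 41 or 42.

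By function, 13 groups of genes were counted against their members on the other 16 chromosomes (3L left out, 4S included). Over all *X. laevis* features, 3L and 4L included, the shares above background were lower than on these 16. They were 78.9% against 84.0% for splicing and RNA-binding genes and 68.3% against 77.4% for translation factors. The share above background was lower on 4L in 10 groups and higher in 3, and no group was tested, since most have few members on 4L. Of 12 splicing and RNA-binding genes 7 were above background, against 84.0% elsewhere. They include hnrnpul2.L, with 7.38, 7.31 and 7.86 CPM in hybrids against 0.0102, 0.0209 and 0.0374 CPM in *X. tropicalis*, and rbm14.L, a paraspeckle protein gene, with 8.46, 12.7 and 8.12 CPM against 0.0409, 0.0626 and 0.00936 CPM. Of 5 features named as ribosomal proteins 2 were above background (79.3% elsewhere, 5 of 5 on 4S). The feature rps19bp1.L, with 0.647, 0 and 1.14 CPM in hybrids and no count in *X. tropicalis*, was counted in this group by its symbol and is named for a protein that binds a ribosomal protein.

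Of 7 translation factors 2 were above background (77.4% elsewhere), namely eif3m.L, an initiation factor subunit gene with 1.27, 0 and 0.988 CPM in hybrids, and eef1g.L, an elongation factor subunit gene with 1.35, 0.188 and 1.33 CPM. Both calls were lost with a library left out (adjusted p up to 0.150 and 0.0627, edgeR). Of 3 proteasome genes 2 were (76.6% elsewhere), psmc3.L with 0.862, 0.776 and 1.70 CPM and psmd6.L with 0.943, 1.28 and 4.74 CPM. Of 4 respiratory chain genes only 2 reached the count minimum and were tested. Of these edgeR called 0, with 0 at an unadjusted p under 0.05 and 0 by DESeq2 (43.6% of all such genes elsewhere). Of 15 solute carriers 6 were above background (37.6% elsewhere), led by slc7a6.L with 5.20, 3.37 and 5.71 CPM in hybrids, against 0.665, 0.323 and 0.384 CPM in *X. tropicalis*.

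Among 13 cell cycle features 4 were above background (69.3% elsewhere, 7 of 11 on 4S). The cyclin D1 gene ccnd1.L had 3.13, 3.79 and 7.06 CPM in hybrids, against 0.0205, 0.0104 and 0 CPM in *X. tropicalis* (adjusted p = 1.55e-06, edgeR), and ccne1.L and ccnb1.2.L are described above. The remaining one, cdc42ep1-like.L, is named after an effector of a small GTPase and came in by its symbol. The mitotic kinesin gene kif18a.L, the called member of 4 kinesin and centromere genes (51.2% elsewhere), had 0.350, 5.90 and 1.67 CPM in hybrids and no count in *X. tropicalis* (at least 264-fold against the floor, adjusted p = 4.30e-05). Of 13 ubiquitin enzymes 3 were above background (52.2% elsewhere), with the F-box gene fbxl8.L highest at 5.50, 9.39 and 5.85 CPM, and of 7 vesicle traffic genes 3 (40.9% elsewhere), among them the retromer gene vps35.L with 1.46, 1.79 and 0.834 CPM.

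Developmental genes were among those that remained expressed. Of 9 homeobox and other developmental transcription factor genes 4 were above background, namely sall1.L, foxa4.L, irx3.L and foxd3.L (51.2% elsewhere, 4 of 12 on 4S). The gene irx3.L had 5.63, 4.15 and 1.61 CPM in hybrids and no count in *X. tropicalis* (at least 380-fold against the floor, adjusted p = 1.90e-06, edgeR), and irx3.S had 0.862, 0.988 and 2.19 CPM. Of 3 secreted ligands and antagonists 2 were above background (51.8% elsewhere). The Wnt pathway related gene dkk3.L had 1.15, 3.15 and 0.726 CPM in hybrids with a single count in *X. tropicalis*, and fgf4.L had 0, 0.282 and 1.58 CPM (adjusted p = 0.0296, up to 0.320 with a library left out). Of 6 znf genes, 4 reached the count minimum and znf423.L alone was called (61.1% elsewhere), while DESeq2 called 0.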

How the data were processed

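PolyA RNA of whole embryos was sequenced. The submitters' processing notes list BWA 0.7.10. No source used here gives the counting program, annotation, build, filters or use of strand. A read that matches both an L and an S copy, or both species, may thus lie on either feature. The unit of the deposited table is raw counts per feature, and every feature had at least 1 count over the 6 libraries. No genome was used, and no coordinates or sequences are given.

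Groups follow the labels. TMM factors came from *X. tropicalis* features with totals over all features, and CPM are counts per effective library size. edgeR 4.0.16 in R 4.3.3 (quasi-likelihood test) compared hybrid with *X. tropicalis* libraries on each *X. laevis* feature that had 10 or more counts summed over hybrids. Copies were compared in the hybrids, with library as a block and no factor between copies. Benjamini-Hochberg adjustment ran over all chromosomes. SE is the log2 fold change over the square root of F. The common coefficient of variation was 1.29 for the background test. Alternatives were DESeq2 1.42.0, library totals, other filters, low-background features and each library left out. No replicate was a repeat of another (chi-square over degrees of freedom 74.7 to 133 for pairs). The floor of 3 counts covers counting error only. Test results reflect library spread.

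The 13 gene groups were taken by symbol pattern. Named genes are the 12 highest called, those bordering and within the 3 longest runs, the largest L over S differences, the largest paternal shares, the highest backgrounds and up to 3 per gene group. Within each run they are uncalled features with the highest S copies among those with the S copy above background, and the 3 highest features. Not every gene the rule takes is given. The members and lists were chosen with earlier results of these data known. Figures were drawn with matplotlib 3.10.9.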

Additional observations from a re-analysis of the deposited data

How the results depend on the processing

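No result past the threshold changed direction under any alternative run. Among uncalled genes, 8 values of 7 genes changed sign with a library left out, among them prkacb.L (log2 fold change -0.09 without hybrid library 42) and elovl1.L (0.05 without library 40). The number of 4L features above background was 230 with library totals, 318 with DESeq2 and 198 to 234 with a library left out, and in each of these settings the share of 4L stayed under that of every one of the other 7 L chromosomes. Keeping features at 5 CPM or more in 3 libraries gave 50 calls, and the longest run had 97 features, since few features were tested. The longest run ranged from 29 to 69 features with a library left out. The log2 net level of 4L over the median of the other L chromosomes was -2.27 with library totals, -2.19 over features under 1 CPM of background and -2.16 to -1.98 with a library left out. Pairs with the L copy lower than S numbered 191 with DESeq2 and 38 to 59 with a hybrid library left out. Pairs with it higher numbered 65, 12 to 22, and 4 over low-background features. Against the *X. tropicalis* copy, 321 to 381 pairs were lower and 1 to 7 higher with a hybrid library left out. With DESeq2 52 were higher, and over low-background features 4 (0.609%, against 1.13% over all such pairs). For the other counts of pairs, the shares over all pairs stand with the results above. The causes of these moves, other than fewer features or libraries tested, were not tested. No paired analysis was possible because the groups share no replicate numbers. Among single genes 928 values kept their side of the threshold, 131 lost it and 3 gained it. At this depth 1 count is 0.00936 to 0.0154 CPM.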

Other observations

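Paternal features read in a single hybrid library were more frequent on 4L. Among features with a hybrid mean over 0.3 CPM and a background under 0.1 CPM, more than 90% of the summed hybrid level lay in 1 library for 49 of 315 features of 4L, or 15.6%. The share was 8.45% on 3L, 8.46% on 4S and 7.10 to 10.6% on the 17 other chromosomes. This measure was chosen after the data were seen and was not tested, and the features of 4L are lower on average, with a median hybrid level of 0.414 CPM on 4L and 1.01 CPM on 4S over all their features.

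The 100 features of 4L without a count in hybrids each had at least 1 count in *X. tropicalis*, because the table lists no feature without counts. Of these, 31 had a copy on 4S, which was above background in 17, and 60 had an *X. tropicalis* copy, with a median of 23.3 CPM in hybrids.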
